A study of Mus musculus with 16 samples.

Results

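The cytochrome P450 enzymes of families 1 to 4, their electron donor and the first enzyme of heme synthesis were followed in liver and kidney of aged male C57BL/6J mice. Members were all gene rows whose symbol consisted of Cyp, a family digit from 1 to 4, a subfamily letter and a gene number, together with Por and Alas1. The rule found 77 of the 32989 genes in the tables, with 3 genes in family 1, 48 in family 2, 7 in family 3, 17 in family 4, and Por and Alas1. Symbols that carry a further letter, such as Cyp4a12a and Cyp3a41a, were outside the rule and were not analysed here.

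The study kept wild-type mice either under a stable light–dark cycle (LD; light from 8:00 to 20:00) or under a chronic jet lag schedule (ADV) in which the cycle was advanced by 8 h every 4 days. Both conditions lasted 85 weeks, and the mice were 97 weeks old when liver and kidney were taken. There were 4 LD mice (L63, L65, L86 and L104) and 4 ADV mice (A75, A91, A94 and A115), and each mouse gave 1 liver and 1 kidney library, 16 in all. Organs were taken from every mouse within 1 window of a few hours, timed from its own last light onset, and not around the day, so a lower level and a shifted daily rhythm cannot be told apart, and per-mouse values are given below in the order in which the mice are named here.

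P450 enzymes are heme proteins of the endoplasmic reticulum that insert an oxygen atom into drugs, steroids, fatty acids and bile acids. All microsomal P450s take their electrons from NADPH through a single partner, P450 oxidoreductase, the product of Por. Each also needs a heme group, whose synthesis starts with 5-aminolevulinate synthase, in liver the product of Alas1. Family 1 responds to the aryl hydrocarbon receptor, families 2 and 3 hold most of the drug- and steroid-metabolizing enzymes and respond to the nuclear receptors CAR and PXR, and family 4 hydroxylates fatty acids and responds to PPARalpha.

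Levels are given in FPKM, fragment numbers divided by the length of the exons and by the size of the library, which allow comparison between genes. Libraries held 15688495 to 24285055 fragments on genes. A member was tested in an organ where its mean was above 0.5 fragments on a scale set by library size alone (FPM), which 57 members passed in liver and 36 in kidney. In all, 33 passed in both organs, 24 in liver alone, 3 in kidney alone and 17 in neither. The organs carried their own markers: the summed FPKM of 7 hepatocyte markers was 58166 to 76274 in livers and 18.7 to 58.6 in kidneys, and that of 6 proximal tubule markers was 20005 to 46498 in kidneys and at most 0.116 in livers. The adrenal enzyme Cyp11b1 was at 0 in every liver and at most 0.085 in the kidneys. The adrenal gland markers as a list summed to 0.262 to 1.14 FPKM in livers and to 0.167 to 0.434 in kidneys. Pancreas acinar markers summed to 7.28 to 18.4 FPKM in livers and to 6.90 to 66.2 in kidneys. Libraries of 2 ADV mice stood apart: the leukocyte markers of A94 summed to 658 FPKM in liver (93.7 to 190 in the other livers) and to 1701 in kidney (162 to 518), and mitochondrial genes took 33.8% of the fragments of the A115 kidney (9.43 to 18.0% in the other kidneys). Values without A94 in liver and without A115 in kidney are given beside the counts and medians that they moved most.

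RefSeq held promoters for 64 of the 77 members. The following 250 bases before the start of transcription (GRCm38.p6, the build of the deposited coordinates; each read 5′ to 3′ on the strand of its gene) are shown for Por, for the most abundant liver member of families 2 and 3, and for a pair of neighbouring genes whose levels varied together. Capitals mark the TATA box TATAAA, the GC box GGGCGG and the nuclear receptor half-site AGGTCA on either strand.
Por (chr5:135688895-135689144, + strand): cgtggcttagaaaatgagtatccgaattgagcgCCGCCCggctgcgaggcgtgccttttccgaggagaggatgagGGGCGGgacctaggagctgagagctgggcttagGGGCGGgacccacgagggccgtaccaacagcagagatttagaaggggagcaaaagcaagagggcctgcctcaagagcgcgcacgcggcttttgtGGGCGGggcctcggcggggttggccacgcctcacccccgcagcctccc
Cyp2e1 (chr7:140763569-140763818, + strand): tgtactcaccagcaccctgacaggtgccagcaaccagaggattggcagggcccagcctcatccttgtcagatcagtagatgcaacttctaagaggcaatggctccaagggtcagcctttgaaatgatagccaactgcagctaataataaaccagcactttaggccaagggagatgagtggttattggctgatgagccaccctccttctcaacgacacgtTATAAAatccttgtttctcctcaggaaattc
Cyp3a11 (chr5:145879855-145880104, - strand): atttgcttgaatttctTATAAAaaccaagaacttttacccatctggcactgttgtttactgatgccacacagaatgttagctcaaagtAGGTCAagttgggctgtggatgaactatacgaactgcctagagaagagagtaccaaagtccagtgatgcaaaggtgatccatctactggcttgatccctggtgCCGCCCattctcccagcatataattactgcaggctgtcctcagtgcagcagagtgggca
Cyp2b9 (chr7:26173159-26173408, + strand): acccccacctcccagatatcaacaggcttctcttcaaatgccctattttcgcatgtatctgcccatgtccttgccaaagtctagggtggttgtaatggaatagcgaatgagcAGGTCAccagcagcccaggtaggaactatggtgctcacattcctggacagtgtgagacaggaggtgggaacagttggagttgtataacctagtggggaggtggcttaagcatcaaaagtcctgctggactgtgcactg
Cyp2b13 (chr7:26061245-26061494, + strand): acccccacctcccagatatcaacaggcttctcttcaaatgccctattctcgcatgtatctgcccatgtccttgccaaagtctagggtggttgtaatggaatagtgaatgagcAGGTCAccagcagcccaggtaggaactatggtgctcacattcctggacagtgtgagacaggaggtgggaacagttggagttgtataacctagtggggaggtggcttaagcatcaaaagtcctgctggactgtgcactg

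The Por promoter held 4 GC boxes and no TATA box, whereas the Cyp2e1 promoter held a TATA box 31 bases before the start and no GC box. The Cyp2b9 and Cyp2b13 promoters were identical at 248 of 250 positions. Over the 64 promoters, TATAAA was found in 37.5% (12.4% of 32851 RefSeq promoters of the same length), AGGTCA in 23.4% (14%) and the D-box letters TTANNTAA of the circadian PAR bZIP factors in 14.1% (5.43%). GGGCGG was found in 21.9% (32.7%), the aryl hydrocarbon receptor core GCGTG in 18.8% (28.2%) and the E-box CACGTG in 3.12% (6.02%), both strands being searched. These shares describe letters in a short window, and members of a gene cluster share ancestry, so they are not independent.

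In liver, the P450 messages were dominated by few genes. Cyp2e1, which oxidizes ethanol and other small molecules in pericentral hepatocytes, averaged 4693 FPKM over the 8 mice and Cyp3a11, the main drug- and steroid-oxidizing enzyme of mouse liver, averaged 2188 FPKM. Cyp2c29 (778 FPKM), Cyp2a5 (596), Cyp2c50 (574) and Cyp2c70 (534), the last of which makes muricholic bile acids, followed, with ranges over mice that overlapped. Por and Alas1 averaged 165 and 202 FPKM. The 75 P450 members together summed to 13650 to 14769 FPKM in LD livers and to 14878, 16255, 11252 and 14324 FPKM in ADV livers, where A94 had the lowest sum of the 8 mice and A91 the highest.

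No member passed an adjusted p of 0.05 in liver between ADV and LD (limma on log2(FPKM + 0.1), Benjamini–Hochberg over 12835 genes, of which 0.00779% were called). Differences below are on that log2 scale, as ADV minus LD, unless another scale is named. The unadjusted p was under 0.05 for 11 of 57 members (19.3%, against 11.8% of all genes tested), 3 of them higher and 8 lower under ADV, where all genes leaned to higher (8.65% higher and 3.13% lower). The median difference was −0.01 over the members and 0.10 over all genes. Without A94, 13 members were higher and 6 lower at an unadjusted p under 0.05, where 14.5% of all genes were under it (8.8% higher and 5.66% lower). Median-ratio scaling, which brought the median of all genes close to 0, left 3 members higher and 10 lower with a median of −0.12, where 13.5% of all genes were under 0.05 (6.19% higher and 7.29% lower). Levels in bulk tissue cannot tell fewer cells of a type from less RNA per cell.

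The liver member with the lowest p was Por (chr5:135689145-135735326, mm10). Its level was 200.3, 184, 258 and 226 FPKM in LD livers and 91.6, 151, 105 and 105 FPKM in ADV livers. Every ADV liver lay below every LD liver, and the mean differed by −47.8% (113 ± 25.7 against 217 ± 32.1 FPKM, SD, n = 4 each). The log2 difference was −0.95 (SE 0.167, limma adjusted p = 0.21), and a two-sided exact permutation test gave p = 0.0286, the smallest value that 4 against 4 mice allow. Leaving out 1 mouse at a time kept the difference between −1.1 and −0.86, and the adjusted p was 0.0419 without A91 and above 0.05 without any other single mouse. Por therefore fell short of a call in the 8 mice. Alas1 showed no such pattern, with 249, 200.5, 176 and 157 FPKM in LD livers against 108, 146, 309.8 and 273 in ADV livers. Its lowest and highest values both came from ADV mice, and the difference was −0.01 (SE 0.321, adjusted p = 0.988).

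The ratio of Por to the summed P450 members was formed after these values had been seen, and is given as a description. The sum leaves out P450s outside the rule, such as Cyp4a12a and Cyp3a41a. Per 1000 FPKM of summed P450, Por stood at 13.6, 12.7, 18.9 and 15.6 FPKM in LD livers and at 6.16, 9.26, 9.38 and 7.35 FPKM in ADV livers. The groups did not overlap, as was already so for Por alone, whereas the P450 sums overlapped, so the ratio largely restates Por.

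Besides Por, 5 liver members had ADV and LD values that did not overlap, so that 6 of 57 (10.5%) lay apart against 8.84% of all genes tested. By direction, 2 members were higher under ADV (6.94% of all genes) and 4 were lower (1.89%). Cyp2c38, a family 2 enzyme from the Cyp2c cluster on chromosome 19, was at 11.2, 12.0, 16.4 and 14.1 FPKM in LD and 19.4, 25.7, 16.9 and 23.1 in ADV livers (difference 0.66, SE 0.163, adjusted p = 0.296). Cyp4f16 was at 0.275 to 0.480 FPKM in LD and at 0.833, 0.632, 2.70 and 0.570 in ADV livers (difference 1.1, SE 0.424, adjusted p = 0.385). Much of its difference came from A94, without which it was 0.64.

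The other members that lay lower, Cyp4f15, Cyp2d22 and Cyp2d13, differed by less than Por. Cyp4f15, a fatty acid hydroxylase on chromosome 17, was at 43.0, 42.6, 46.8 and 44.7 FPKM in LD and 30.0, 38.8, 26.8 and 34.6 in ADV livers (−0.46, SE 0.12, adjusted p = 0.296). Cyp2d22, the mouse gene most often likened to human CYP2D6, was at 60.9 to 63.5 FPKM in LD and at 46.99, 57.5, 50.03 and 52.3 in ADV livers (−0.27, SE 0.087, adjusted p = 0.342). Cyp2d13 was at 28.3, 30.7, 28.0 and 39.3 FPKM in LD and 21, 23.0, 17.4 and 25.0 in ADV livers (−0.55, SE 0.146, adjusted p = 0.296). All 6 tested genes of the Cyp2d cluster on chromosome 15 had a negative difference (median −0.34), among them the steroid hydroxylase Cyp2d9 (500.2 ± 47.6 against 386 ± 103 FPKM) and Cyp2d40 (39.3 ± 9.98 against 26.5 ± 6.33 FPKM). Neither of these last 2 groups lay apart, and part of the Cyp2d9 transcript is shared with its neighbours, with 9.86% of its 100-base windows found in another gene.

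**Figure D1:**
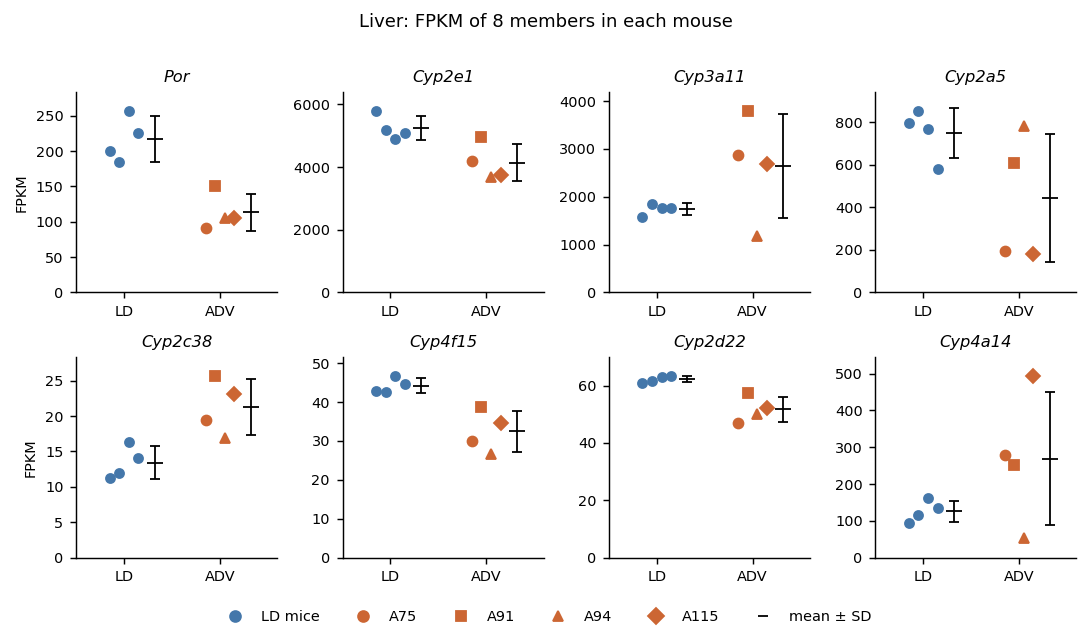
FPKM of 8 members in liver for each mouse, with 4 LD mice as circles, 4 ADV mice as separate symbols, and black marks for the mean and SD of each group; every axis starts at 0. Por, Cyp4f15 and Cyp2d22 lie lower and Cyp2c38 lies higher in all 4 ADV livers, whereas for Cyp3a11 and Cyp4a14 the mouse A94 lies below all LD livers and the other ADV mice above them.

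Family 2 held 36 tested members in liver, with 16 positive and 20 negative differences and a median of −0.15. Cyp2e1 was at 5806, 5198, 4903 and 5082 FPKM in LD and 4184, 4966, 3673 and 3732 in ADV livers. The mean differed by −21.1%, but A91 overlapped the LD range (−0.35, SE 0.167, adjusted p = 0.442). Its share of the summed P450 message was 35.0 to 39.3% in LD and 26.1 to 32.6% in ADV livers, without overlap. Cyp2a5, the coumarin hydroxylase, split the ADV group: A75 and A115 were at 195 and 183 FPKM, A91 and A94 at 610.2 and 780.5, and the LD livers at 581 to 855 (−1.04, SE 0.455, adjusted p = 0.418). Its neighbour Cyp2a4, a testosterone hydroxylase that shares 11.2% of its windows with other transcripts, was lowest in the same mice, at 1.1 and 1.05 FPKM against 2.80 to 6.15 in LD livers, and highest in A94 at 16.5 FPKM.

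Within the Cyp2c group, 11 of 14 tested genes had positive differences (median 0.25), where 65.7% of all genes did. Cyp2c55, an inducible enzyme, was at 1.52 to 2.47 FPKM in LD and 3.26, 4.68, 3.06 and 2.07 in ADV livers (0.77, SE 0.245, adjusted p = 0.339), and only A115 overlapped the LD range. Cyp2c29 was at 573 to 825 FPKM in LD and at 1072, 1043, 416 and 1004 in ADV livers. The exception was again A94. Cyp2c23, an arachidonic acid epoxygenase, lay the other way, at 157 to 184 FPKM in LD and 162, 102, 83.2 and 139.6 in ADV livers (−0.50, SE 0.193, adjusted p = 0.385). Cyp2c70 reached 1048 FPKM in A94 and 710.1 in A75, and was 277 to 571 FPKM in the other 6 livers.

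All 4 tested members of family 3 had positive differences in liver (median 0.43), where 65.7% of all genes did, and no member had an unadjusted p under 0.05. Cyp3a11 was at 1566, 1857, 1758 and 1774 FPKM in LD livers and at 2879, 3802, 1183 and 2685 FPKM in ADV livers. Thus 3 ADV livers stood above all LD livers and A94 stood below them. The SD was 1085 FPKM within ADV against 123 within LD (0.48, SE 0.315, adjusted p = 0.524). Cyp3a25 likewise had 3 ADV livers above all LD livers and A94 below them, at 324 to 363 FPKM in LD and 653, 628, 196 and 488 in ADV livers, and so did Cyp3a59, at 16.2 to 21.5 and 40.6, 50.1, 12.7 and 24.6 FPKM. Cyp3a59 was named after its values had been seen. In Cyp3a13, A91 lay within the LD range, at 85.3, 102, 129.9 and 99.1 FPKM in LD and 181, 114, 79.6 and 135 in ADV livers (0.25, SE 0.233, adjusted p = 0.64). Family 3 made up 13.8 to 16.6% of the summed P450 message in LD livers and 25.2, 28.3, 13.1 and 23.3% in ADV livers. Without A94 the Cyp3a11 difference was 0.83 with a limma adjusted p of 0.125, and the family had a median of 0.80 with an unadjusted p under 0.05 in 4 of 4 members, all higher (8.8% of all genes were), and no adjusted p below 0.118. That fit leaves out the ADV liver that lay the other way in these genes. Without A115 the median was 0.38.

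Family 4 in liver held 6 positive and 6 negative differences (median −0.07, or 0.07 without A94 and −0.14 without A115). The 4 genes of the Cyp4a group, fatty acid omega-hydroxylases driven by PPARalpha, differed in sign. Cyp4a14 was at 94.4, 116, 161 and 134 FPKM in LD and 278, 252, 52.0 and 495 in ADV livers (0.73, SE 0.576, adjusted p = 0.578). Cyp4a10 was at 97.8 to 161 FPKM in LD and 125, 150.0, 28.3 and 184 in ADV livers, and its difference changed sign with 1 mouse, from −0.25 to 0.35 without A94. Cyp4a32, of whose windows 20.1% are shared with other transcripts, chiefly Cyp4a10, was at 12.9 to 14.6 FPKM in LD and 11.03, 8.95, 5.29 and 14.3 in ADV livers. Cyp4v3, an ocular and hepatic fatty acid hydroxylase, was at 157 ± 12.9 FPKM in LD and 133 ± 10.1 in ADV livers (−0.23, SE 0.0989, adjusted p = 0.411).

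Family 1 was carried by Cyp1a2, the caffeine-oxidizing enzyme of hepatocytes, at 264 ± 21.7 FPKM in LD and 224 ± 28.2 in ADV livers (−0.24, SE 0.118, adjusted p = 0.446). Cyp1a1 was at most 0.589 FPKM in any liver. Cyp1b1, which outside the liver metabolizes estrogens and polycyclic compounds, was at 0.199 to 0.278 FPKM in LD livers and at 0.529, 0.198, 1.70 and 0.252 in ADV livers, so that A75 and A94 lay above the LD range.

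The liver of A94 differed from the other ADV livers across the P450 set. Of 57 members, 25 (43.9%) were lower in A94 than in all 7 other livers, against 8.32% of all genes tested, and 10 (17.5%) were higher, against 49.7%. The lowest relative to the LD mean were Cyp2b10 (0.329 FPKM; 1.1 to 9.37 in the other livers), the classical CAR target, and Cyp4a10. The highest were Cyp2c69, Cyp4f18 and Cyp4f16, with Cyp4f18 at 4.28 FPKM against 0.179 to 0.510. Cyp2c69 has 36.3% of its windows in other transcripts, chiefly Cyp2c40, which was also highest in A94 (14.4 FPKM, 1.64 to 7.67 in the other livers), so reads of this pair may be split uncertainly, and Cyp4f16 has 9.8%. Cyp2c40 was named after its values had been seen. In the same liver the 8 leukocyte markers summed to 658 FPKM and the 5 cholangiocyte markers to 247 (20.0 to 53.5 in the other livers), while the hepatocyte markers summed to 58166, the lowest of the 8 livers. Over the ADV group, 8 of 8 leukocyte and 5 of 5 fibroblast and stellate cell markers had positive differences, as did 65.7% of all genes. Leukocyte markers summed to 190 FPKM in A75, 144 in A91 and 132 in A115, against 93.7 to 147 in LD livers. The fibroblast markers summed to 156 to 326 FPKM in ADV against 112 to 128 in LD livers. The part of these markers in the member values was not tested.

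**Figure D2:**
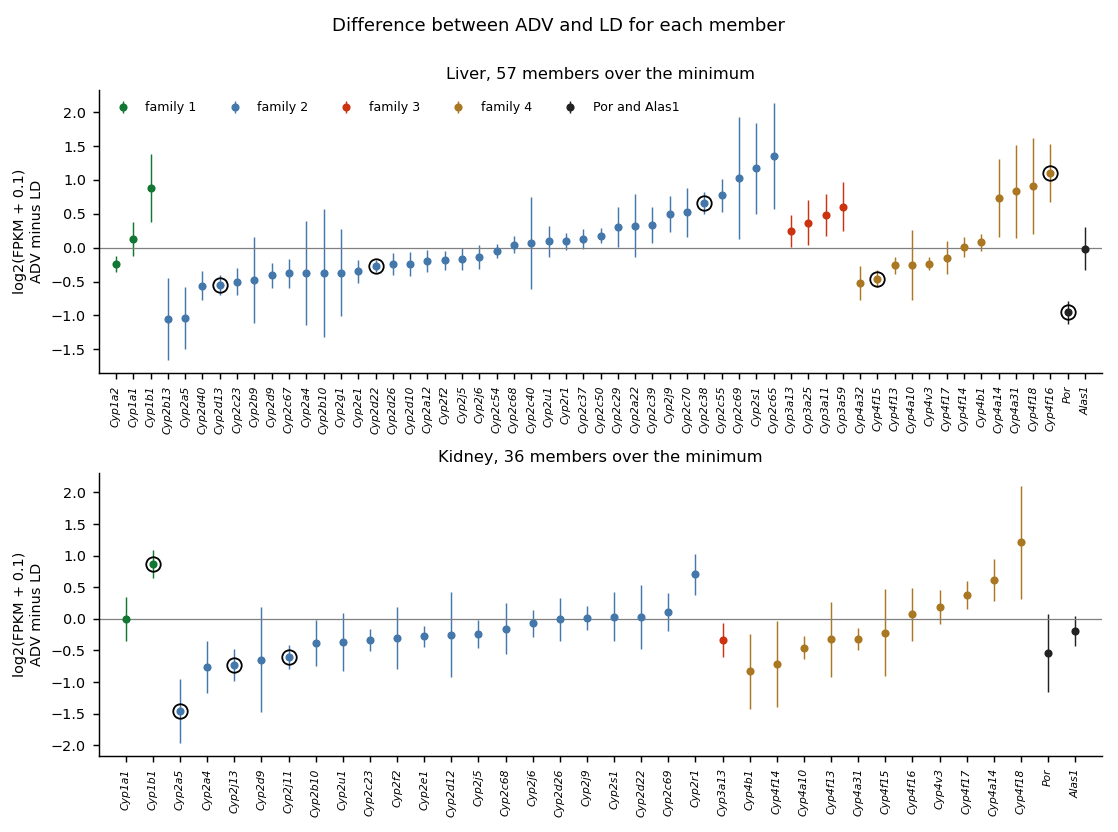
Difference between ADV and LD on the log2(FPKM + 0.1) scale for each tested member in liver (57 members) and kidney (36 members), ordered by family and size; points are the difference, bars are 1 SE, and open rings mark members whose 4 ADV values lie apart from the 4 LD values. Por is lowest among the ringed liver members, and in kidney Cyp1b1 is ringed above 0 while Cyp2a5, Cyp2j13 and Cyp2j11 are ringed below it.

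The regulators of these genes were described from a list of receptors and partners. In liver, 10 of its 11 genes were tested, 3 with positive and 7 with negative differences (median −0.18), and 4 had an unadjusted p under 0.05, all lower, against 3.13% of all genes lower. Messages for CAR (Nr1i3; 68.0 against 46.3 FPKM, difference −0.57, adjusted p = 0.234), PPARalpha (Ppara; 47.3 against 28.5, −0.75, adjusted p = 0.296) and PXR (Nr1i2; 29.4 against 23.6, −0.33, adjusted p = 0.404) were lower in every ADV liver than in any LD liver, against 1.89% of all genes. The list gene that lay higher without overlap was the oxidative stress factor Nfe2l2 (19.2 against 22.0 FPKM, 0.19), against 6.94% of all genes. Hnf4a, which sustains hepatocyte expression of most P450s, was at 207 against 155 FPKM with overlap (−0.42, adjusted p = 0.378). No gene of the list passed the adjusted test in liver. In kidney 9 genes were tested, and 1 had an unadjusted p under 0.05 (3.1% of all genes did): Ppara at 18.7 to 22.2 FPKM in LD and 14.1, 17.6, 13.3 and 6.57 in ADV kidneys (−0.72, adjusted p = 0.9999). Without A115 the median of the list in kidney went from −0.08 to 0.46, and 4 of the 9 genes had an adjusted p under 0.05, where 18.8% of all genes did: Rxrb (0.96, adjusted p = 0.0125), Keap1 (0.76, adjusted p = 0.0132) and Rxra (0.48, adjusted p = 0.0136) were higher and Ppara (−0.43, adjusted p = 0.0425) was lower. With median-ratio scaling as well, Rxra no longer passed (0.29, adjusted p = 0.101).

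Classes of members named for their inducer or pattern were read the same way. The 7 CAR- and PXR-responsive genes had a median of 0.31 in liver with 6 positive differences (65.7% of all genes were positive). Of these 7, 1 (Cyp2c55) had an unadjusted p under 0.05, where 11.8% of all genes did. Without A94 the median was 0.64, with 7 of 7 positive, 6 at an unadjusted p under 0.05 (14.5% of all genes) and no adjusted p below 0.118, and without A115 it was 0.22. The 4 PPARalpha-responsive genes had a median of 0.24 with 2 positive and 2 negative, but of 0.86 without A94 and −0.12 without A115. The 3 receptor-dependent family 1 genes had a median of 0.13, which was −0.06 without A94 and 0.14 without A115. Both of these classes thus changed sign with 1 mouse. Of 6 female-predominant genes, 4 were tested, with a median of −0.43 and 3 negative, and the median was −0.92 without A94 and −0.09 without A115. Cyp3a16 and Cyp3a44 of this class stayed under the minimum at means of 0.127 and 0.208 FPKM. The 6 pericentral genes had a median of −0.06, 3 in each direction. None of these classes held a member with an adjusted p under 0.05 in the 8 livers.

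Other partners of the P450s are encoded by the cytochrome b5, cytochrome b5 reductase and progesterone receptor membrane component genes. Of these 8 genes, 7 were tested in each organ, and none had an unadjusted p under 0.05 in liver or kidney (medians 0.01 and −0.05), where 11.8% and 3.1% of all genes did. The 8 other genes of heme synthesis had medians of −0.07 in liver and 0.00 in kidney, with 1 gene each at an unadjusted p under 0.05, near the share of all genes in liver (11.8%) and beside 3.1% in kidney. These were Alas2 in liver (62.3 against 43.2 FPKM) and Fech in kidney (62.7 against 50.04 FPKM). Without A115 the kidney median of heme synthesis was 0.41, and 4 of the 8 genes were higher at an adjusted p under 0.05, where 16.1% of all genes were, among them Ppox (0.93, adjusted p = 0.0168), Urod (0.41, adjusted p = 0.0227) and Alad (0.42, adjusted p = 0.0392). With median-ratio scaling as well, Ppox still passed (0.73, adjusted p = 0.0372), and Urod and Alad did not. Of 4 heme breakdown genes, Hmox2 alone was under 0.05 in liver (29.7 against 35.6 FPKM). The circadian PAR bZIP regulators Dbp, Tef and Hlf all had negative differences in liver (median −0.47), and Hlf was under 0.05 in kidney (30.7 against 22.0 FPKM). Of the epoxide hydrolases, which process the epoxides made by P450s, 2 of 4 were tested in kidney. Ephx2 was at 223 against 152 FPKM with no overlap, where 1.83% of all genes were lower without overlap (−0.60, adjusted p = 0.9999), and Ephx1 was at 36.5 against 30.3 FPKM with overlap (−0.49, adjusted p = 0.9999).

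The kidney carried another set. Cyp4b1, a fatty acid and xenobiotic hydroxylase, averaged 1247 FPKM, followed by Cyp2e1 (925), the arachidonic acid epoxygenase Cyp2j5 (488), Cyp2a4 (461), Cyp2a5 (228), Cyp2d12 (141) and Cyp2j11 (119). No kidney member had an adjusted p under 0.05 among 14452 genes tested, of which none was called (0%). The unadjusted p was under 0.05 for 5 of 36 members (13.9%, against 3.1% of all genes), 1 higher (1.75%) and 4 lower (1.35%). The groups did not overlap for 4 members (11.1%, against 2.8%): 1 higher (0.962% of all genes) and 3 lower (1.83%).

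Cyp1b1 was the kidney member that lay higher. It was at 7.91, 7.02, 9.16 and 7.53 FPKM in LD kidneys and at 14.1, 10.2, 14.7 and 20.4 in ADV kidneys, 88.1% higher on average (0.87, SE 0.222, unadjusted p = 0.00431, adjusted p = 0.9999, exact permutation p = 0.0286). Cyp2j11 was at 161, 149, 117 and 142 FPKM in LD and 77.1, 109, 76.2 and 117 in ADV kidneys (−0.60, SE 0.196), the lowest LD value, from L86, and the highest ADV value, from A115, being close together. Its neighbour Cyp2j13 was at 107, 107, 123 and 129.6 FPKM in LD and 70.8, 94.7, 42.2 and 84.3 in ADV kidneys (−0.73, SE 0.254). Both are nearly confined to kidney, with liver means of 0.00825 and 0.00122 FPKM.

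Cyp2a5 in kidney was at 371, 438, 242 and 239 FPKM in LD and at 131, 217, 149 and 39.3 in ADV kidneys. The mean differed by −58.4% (−1.45, SE 0.509, limma adjusted p = 0.9999), the ADV values being below all LD values. That separation by itself sets the exact permutation p to its smallest value, 0.0286, which was not adjusted over the members. Cyp2a4 was at 445 to 631 FPKM in LD and 412, 539, 381 and 133 in ADV kidneys, with overlap. Of the Cyp4a group, Cyp4a10 was at 118 to 141 FPKM in LD and 79.0, 131, 85.9 and 95.2 in ADV kidneys (−0.46, SE 0.182), whereas Cyp4a14 lay the other way at 18.6 to 28.7 against 44.9, 17.1, 45.8 and 35.3 (0.61, SE 0.326). For Cyp4a10, A91 lay within the LD range. The 7 genes of arachidonic acid epoxidation and hydroxylation that were tested in kidney had 2 positive and 5 negative differences (median −0.22), and Cyp4a10 alone had an unadjusted p under 0.05 (3.1% of all genes did). Without A115 the median was −0.23, Cyp2j5 passed the adjusted test as given below, and Cyp4f15 turned from −0.22 to 0.51. Beside these values, the 5 fibroblast markers summed to 42.1 to 74.7 FPKM in LD and 53.6 to 143 in ADV kidneys, and the 5 cholangiocyte and ductular markers to 687 to 2793 in LD and 6820, 664, 917 and 8235 in ADV kidneys, whose part in the member values was not tested.

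**Figure D3:**
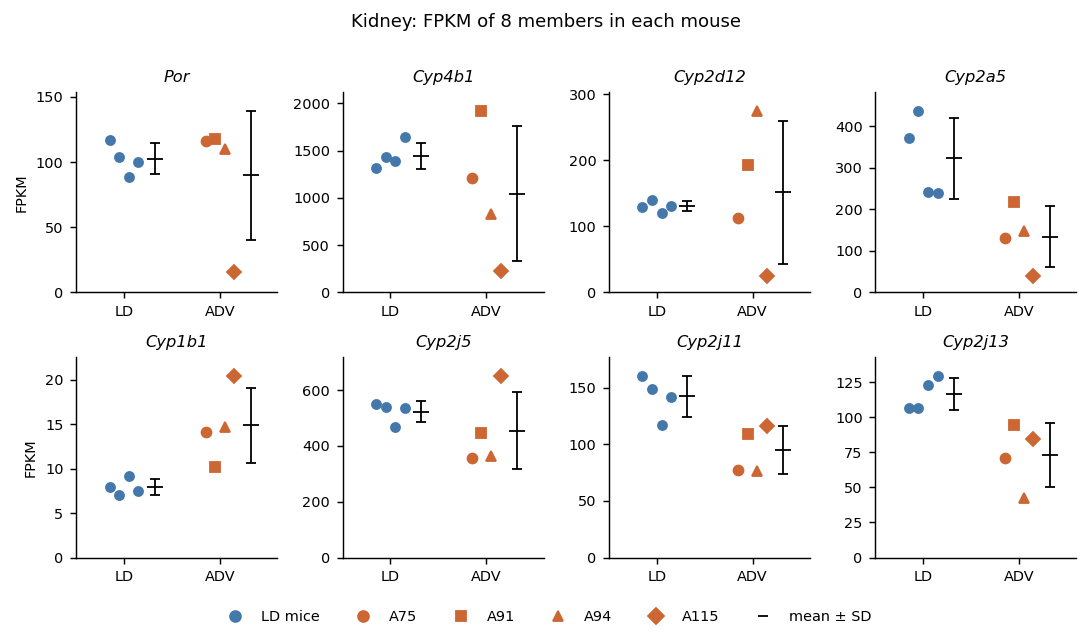
FPKM of 8 members in kidney for each mouse, drawn as for liver, with every axis starting at 0. The ADV mouse A115 lies far below all other kidneys for Por, Cyp4b1, Cyp2d12 and Cyp2a5 and above them for Cyp1b1 and Cyp2j5, while Cyp2j11 and Cyp2j13 lie lower in all 4 ADV kidneys.

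The A115 kidney decided several of these values. Por was at 117, 103.96, 88.8 and 100.4 FPKM in LD kidneys and 116, 118, 110.3 and 15.96 in ADV kidneys, so that the mean difference of −0.54 (SE 0.623) became 0.17 (SE 0.105, adjusted p = 0.272) without A115. Cyp4b1 was at 1315 to 1642 FPKM in LD and 1209, 1925, 831 and 222 in ADV kidneys, and Cyp2d9 was at 70.3 to 111 and 84.7, 153, 109.5 and 8.48. Cyp4f14 was at 0.553 to 0.901 FPKM in 7 kidneys and had no fragment in A115, although Alas1 was still at 51.7 FPKM (89.6 to 109 in the others). Of 36 members, 18 (50%) were lower in A115 than in all other kidneys, against 55.4% of all genes tested, and 13 (36.1%) were under 50% of the lowest other kidney, against 29.6%. Higher than all other kidneys were 5 (13.9%), against 19.1%. The members thus shared the pattern of the library as a whole.

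The members that were low in A115 were rich in G and C. Median transcript GC content was 52.6% for the 18 members below the other kidneys and 42.7% for the 5 above. Across the 36 members, the deviation of A115 from the LD mean and GC content had Pearson's r = −0.71 and Spearman's rho = −0.74, and across 13910 genes tested with a known transcript r was −0.68. These are correlations across genes of 1 library, and genes are not independent replicates. Members of at least 47% GC had a median deviation of −1.71 (n = 22) and the others 0.33 (n = 14). The other ADV kidneys deviated the other way, with r across the members of 0.43 in A75, 0.32 in A91 and 0.35 in A94, and across all genes of 0.58, 0.57 and 0.37. The proximal tubule markers of the A115 kidney summed to 46498 FPKM, the highest of the 8. Its markers of other nephron segments summed to 1155 FPKM, the lowest of the 8 (1767 to 2910 in the other kidneys). The part of GC content in the member values was not tested.

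**Figure D4:**
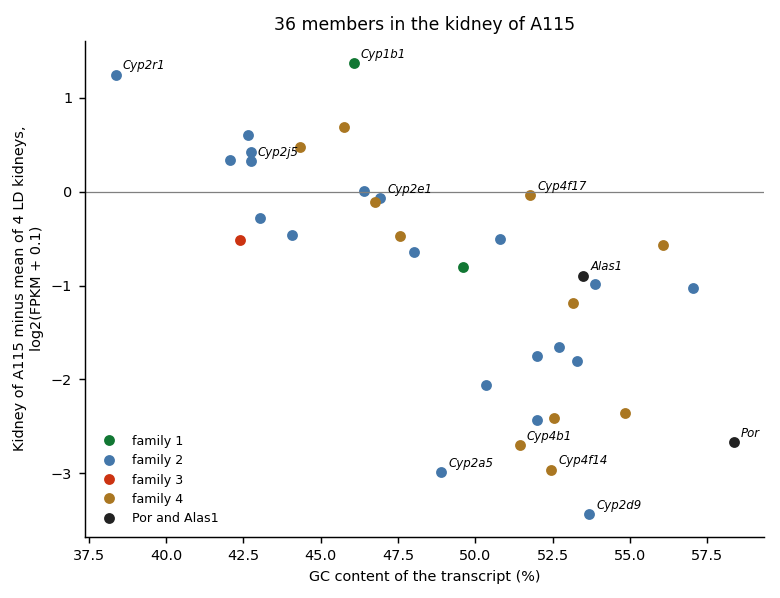
Deviation of the A115 kidney from the mean of the 4 LD kidneys on the log2(FPKM + 0.1) scale against the GC content of the transcript, 1 point for each of 36 tested members, coloured by family. The 22 members of at least 47% GC have a median of −1.71 and the other 14 a median of 0.33 (r = −0.71).

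Without A115, 6 of 36 kidney members (16.7%) had an adjusted p under 0.05, where 18.8% of all 14475 genes did (16.1% higher and 2.68% lower). Cyp1b1 (0.70, adjusted p = 0.0209) and Cyp2d22 (0.60, adjusted p = 0.0191) were higher under ADV, and Cyp2j11 (−0.71, adjusted p = 0.0218), Cyp2j13 (−0.82, adjusted p = 0.0472), Cyp2a5 (−0.94, adjusted p = 0.0389) and Cyp2j5 (−0.43, adjusted p = 0.0411) were lower. Cyp2d22 was at 5.39 to 6.26 FPKM in LD kidneys and at 9.91, 7.63, 9.61 and 1.81 in ADV kidneys. Cyp2j5 was at 467 to 551 FPKM in LD and 357, 445, 363 and 652 in ADV kidneys. Both have A115 on the far side of the LD group. Transcript GC content was 52.7% for Cyp2d22, 48.9% for Cyp2a5, 46.1% for Cyp1b1, 44.1% for Cyp2j13, 43.04% for Cyp2j11 and 42.7% for Cyp2j5, and its part in these calls was not tested. When libraries were rescaled by median ratios without A115, 7 members passed, 2 higher and 5 lower, where 16% of all genes did (8.06% higher and 7.9% lower). Without both A94 and A115, left out together after the data had been seen, no member passed, where 4.7% of all genes did, and the adjusted p was 0.0673 for Cyp2d22 and 0.0713 for Cyp1b1. The median difference over the 36 members was −0.25 in the 8 mice and 0.06 without A115.

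Whether the ADV difference itself depended on the organ was tested on the 33 members over the minimum in both. None had an adjusted p under 0.05 (0% of 12319 genes were called), and none had an unadjusted p under 0.05 (3.46% of all genes did). Por, at −0.95 in liver and −0.54 in kidney, gave a kidney minus liver difference of 0.41 (adjusted p = 0.9999). Without A115 the difference for Por was 1.09 (SE 0.226, adjusted p = 0.0245), and Cyp2d22 (0.88, adjusted p = 0.0163) and Cyp4f13 (0.69, adjusted p = 0.0389) also passed, where 3.72% of all genes did. Cyp4f13, named after its values were seen, was at 9.70 to 11.6 FPKM in LD and 12.4, 12.7, 14.8 and 1.95 in ADV kidneys. That fit left out both organs of A115, and the organ dependence of Por rests on leaving out this mouse. With median-ratio scaling as well only Cyp2d22 passed (4.43% of all genes did), and without both A94 and A115 Cyp2d22 and Por passed (7.68%). None of these fits treated mouse as a block. GC content of the transcript was 58.3% for Por, 54.9% for Cyp4f13 and 52.7% for Cyp2d22, and its part in these calls was not tested.

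The organs themselves were far apart. Of the 33 members tested, 28 had an adjusted p under 0.05 between kidney and liver, where 70.9% of all genes did, 21 higher in liver and 7 higher in kidney. All genes leaned the other way, with 58.9% higher in kidney, 12% higher in liver and a median of 0.65, against −1.46 for the members. Under median-ratio scaling, which set the median of all genes to −0.09, 24 members were higher in liver and 6 in kidney, and the lean of all genes turned, with 60.6% called, 27.3% higher in kidney and 33.3% higher in liver. Over all 77 members, the ranges of the 8 livers and 8 kidneys overlapped for 28, while 41 (4.08% of all genes in the tables) were higher in liver and 8 (16.4%) in kidney without overlap. With no filter on low values 58 of 74 members differed between organs (58.7% of all genes), and with a mean FPKM above 1 it was 16 of 19 (68.5%).

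**Figure D5:**
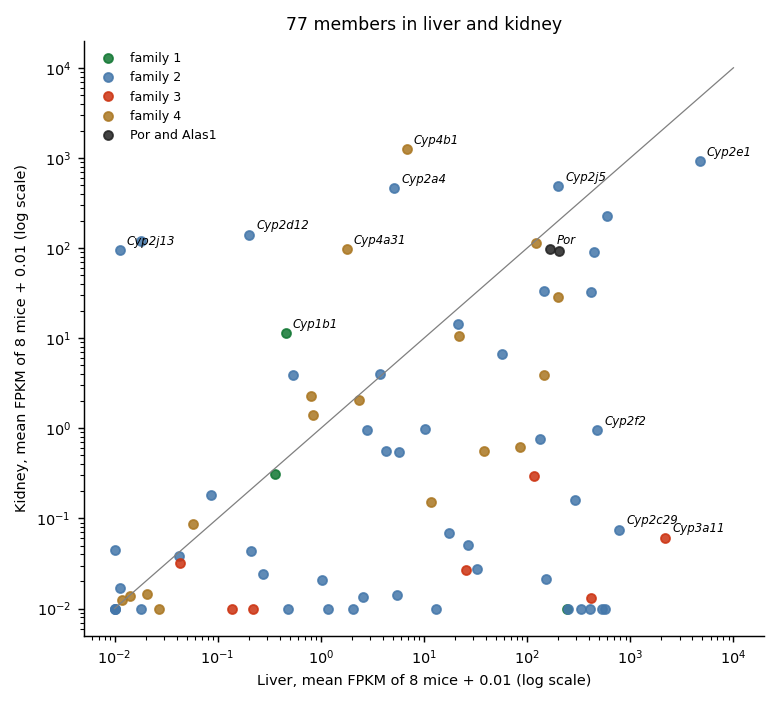
Mean FPKM of 8 mice in kidney against liver for the 77 members, both on log axes after adding 0.01, coloured by family, with the line of equal level. Cyp4b1, Cyp2a4, Cyp4a31, Cyp2d12, Cyp2j13 and Cyp1b1 lie above the line, and most members of families 2 and 3, with Cyp3a11 farthest to the right in family 3, lie below it.

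Among tested members the largest organ differences in favour of liver were those of Cyp2f2 (480.5 ± 69.9 against 0.937 ± 0.362 FPKM, SD, n = 8 each), which bioactivates naphthalene, Cyp3a13 (116 against 0.286) and Cyp2c68 (132 against 0.757). In favour of kidney they were Cyp4b1 (1247 ± 521 against 6.76 ± 0.794 FPKM, kidney minus liver 7.31, SE 0.316), Cyp2a4 (461 against 5.09), Cyp4a31 (97.1 against 1.77) and Cyp1b1 (11.4 against 0.446). Cyp2d12 (141 against 0.190 FPKM), Cyp2j11 and Cyp2j13 were over the minimum in kidney alone. Cyp1a2, Cyp2c37, Cyp2c50 and Cyp2c70 were listed at 0 in all 8 kidneys, as were 17 members in all, and 3 members were at 0 in all 16 libraries. Cyp4a10 had nearly equal means, 121 ± 47.4 in liver and 115.05 ± 24.8 FPKM in kidney (0.05, SE 0.303, adjusted p = 0.885). Under median-ratio scaling its kidney minus liver difference was −0.72 (limma adjusted p = 0.0802). The neighbour Cyp4a14 was at 198 against 28.9 FPKM and Cyp4a31 went the other way.

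Position on the chromosome went with this division only in part. The 14 members between 39007019 and 40187286 on chromosome 19, all of the Cyp2c group, had 13 over the minimum in liver and 2 in kidney, and the 6 genes of the Cyp3a cluster (chr5:145345270-146113285) had 3 and 0. The Cyp2j cluster (chr4:96042660-96664119; 7 genes) had 3 and 5, and the Cyp2d cluster (chr15:82370527-82794245; 9 genes) had 6 and 4. Cyp2d12 and Cyp2d9 lie in the same cluster, yet Cyp2d12 was almost only in kidney and Cyp2d9 was at 443 FPKM in liver and 91.4 in kidney.

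Co-variation across the 8 mice was computed for 6 pairs, on log2(FPKM + 0.1) with exact permutation p-values adjusted over the 6. Each condition had too few mice for a value of its own. In liver, Cyp2b9 and Cyp2b13, female-predominant testosterone hydroxylases with the nearly identical promoters shown above, had r = 0.91 and rho = 0.93 (exact permutation p = 0.00206 and 0.00223, adjusted p = 0.0124 and 0.0134), and r was 0.78 without A75 and A91, the mice farthest from the median of Cyp2b9. Cyp2b9 ranged from 2.74 FPKM in A75 to 27.1 in A91. Cyp4a10 and Cyp4a14 had r = 0.80 and rho = 0.83 in liver (adjusted exact p = 0.0214 and 0.0461), and r was 0.50 without A94 and A115, so the relation rests in part on these mice.

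In kidney the same Cyp4a pair ran in opposite directions, with r = −0.86 and rho = −0.64 (adjusted exact p = 0.0214 and 0.144), and r was −0.59 without A75 and A94. Por and Alas1 had r = −0.06 and rho = −0.02 in liver (adjusted exact p = 0.893 and 0.977). In kidney they had r = 0.94 and rho = 0.43 (adjusted exact p = 0.0971 and 0.359), but r was −0.14 without L86 and A115, so that relation did not hold without these mice. Cyp2b10 and Cyp3a11, both CAR and PXR targets, had r = 0.65 and rho = 0.64 in liver (adjusted exact p = 0.0971 and 0.144), and r was 0.14 without L63 and A94.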

How the data were processed

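RNA from 8 livers and 8 kidneys was sequenced as paired-end, poly(A)-selected stranded libraries by 2 providers on different instruments. Which library went to which was not given in the sources used here, so provider cannot be told apart from condition or from organ. The authors trimmed reads, aligned them to mm10 (STAR 2.5.4b per the submitters' processing notes), removed alignments with a mapping quality under 10 and counted exons of UCSC genes with HOMER. The authors deposited FPKM for 32989 genes (headed RPKM), in which each read counts 0.5. Fragments recovered from them were whole in steps of 0.5 for 100% of rows (tolerance 0.01). Liver libraries held 21092501 to 24285055 and kidney libraries 15688495 to 18043306 fragments on genes, and replicates were separate mice.

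Genes with a mean above 0.5 fragments scaled to library size were tested as log2(FPKM + 0.1) with limma 3.58.1 (R 4.3.3; variance trend, Benjamini–Hochberg), organ by organ for ADV against LD and together for organ and interaction. Single values used the two-sided exact permutation test. Alternatives were other pseudocounts, filters and scalings, limma-voom on recovered fragments, each mouse left out, and mouse as a block. Both organs came from the same mouse by the labels' numbers, and the deviations of the 2 organs correlated at −0.0242 to 0.553 over the 8 mice. Scripts were tested on simulated data. Promoter sequences were from RefSeq (GRCm38.p6), and GC content and shared windows were computed from GENCODE transcripts. Members and lists were chosen with earlier results of these data known. Named members were the most abundant, the lowest p, those without overlap, the largest organ differences and the listed classes, 53 in all.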

Additional observations from a re-analysis of the deposited data

Results flagged for a closer look

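A mouse far from the other 3 of its group, by Dixon's criterion on log2(FPKM + 0.1), was found in 12 of 164 groups of 4 mice, where chance gives about 1 in 20. In liver, A94 was lowest of the ADV mice for Cyp2c29 (416 FPKM) and Cyp2d26 (267 FPKM). A75 was highest for Cyp2c50 (692 FPKM) and A115 for Cyp2u1 (4.3 FPKM). Of the LD livers, L104 was highest for Cyp2c70 (570 FPKM) and L86 for Cyp1b1 (0.278 FPKM). In kidney, A115 was lowest of the ADV mice for Por (16 FPKM), Cyp2d26 (15.5 FPKM) and Cyp2d22 (1.81 FPKM), and A75 was highest for Cyp3a13 (0.378 FPKM). Of the LD kidneys, L86 was lowest for Cyp2j5 (467 FPKM) and L65 highest for Cyp4f14 (0.785 FPKM).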

How the results depend on the processing

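Leaving out 1 mouse at a time, 0 to 1 liver members (Por, without A91), 0 to 6 kidney members (6 without A115) and 0 to 3 members in the test of whether the ADV difference depended on the organ (3 without A115) had an adjusted p under 0.05 (limma). With A115 left out and median-ratio scaling, 7 kidney members (16% of all genes) and 1 in the test of organ dependence (4.43%) passed, and without A94 and A115, a choice made after seeing the data, 2 passed the latter (7.68%). The number that differed between organs was 58 of 74 with no filter (58.7% of all genes) and 16 of 19 with a mean FPKM above 1 (68.5%). With mouse as a replicate block the counts were 0 in liver, 0 in kidney, 0 for organ dependence and 28 for the level between organs, and the pairing changed no call in the 8 mice. The block was not fitted with A115 left out, so it does not cover the calls made without that mouse. The median of family 1 in liver was −0.24 with a mean FPKM above 1 and −0.21 after quantile normalization, and in kidney 0.87 with the former. That of family 2 in liver was −0.0058 with no filter, −0.26 with median-ratio scaling and −0.25 to −0.035 leaving out 1 mouse. That of family 4 in kidney was 0.15 without A115 under median-ratio scaling, 0.27 without A94 and A115, and −0.41 to 0.35 leaving out 1 mouse. Family 3 in kidney had no value with a mean FPKM above 1. Of 1707 alternative values of 82 member differences, 1591 kept direction and side of the threshold, 14 passed it, 80 changed sign within 1 SE of 0, and 22 otherwise changed sign. In liver these were Cyp1a1 (−0.21, quantile), Cyp2c69 (−0.53), Cyp2j5 (0.059), Cyp4a10 (0.21) and Cyp4f18 (−0.13) without A94 and A115, and Cyp2u1 (−0.20) and Cyp4b1 (−0.11) without A115 under median-ratio scaling. In kidney they were Cyp2d12 (0.28) and Cyp4f15 (0.34) under the latter, and Cyp2b10 (0.00065), Cyp2d26 (0.35), Cyp2d9 (0.30), Cyp4b1 (0.082), Cyp4f15 (0.61) and Por (0.20) without A94 and A115. Leaving out 1 mouse gave −0.55 to 0.35 for Cyp4a10 in liver, and in kidney −0.69 to 0.48 for Cyp2d12, −0.14 to 0.32 for Cyp2d26, −1.10 to 0.28 for Cyp2d9, −1.07 to 0.034 for Cyp4f14, −0.58 to 0.51 for Cyp4f15 and −0.79 to 0.17 for Por. The cause was not tested. With 4 mice in each condition the exact test cannot go below 0.029. Groups that do not overlap always give that value, so for members named for lying apart it adds nothing to the non-overlap.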
